A study of Homo sapiens with 6 samples.

Results

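The miR-17-92 cluster was followed through 8 of its mature miRNAs, chosen by name: hsa-miR-17-5p, hsa-miR-17-3p, hsa-miR-18a-5p, hsa-miR-18a-3p, hsa-miR-19a-3p, hsa-miR-20a-5p, hsa-miR-19b-3p and hsa-miR-92a-3p, written below without the species prefix. All 8 were present among the 787 mature miRNAs of the deposited table, and all 8 were among the 637 with a mean normalized read count of at least 1 that entered the test. The libraries came from A549, an established lung adenocarcinoma cell line of epithelial origin, in which the study restored SMARCA4 by plasmid. SMARCA4, also called BRG1, is an ATPase subunit of the SWI/SNF chromatin remodelling complex. One group received pcDNA4-SMARCA4 and its control received the empty pcDNA4 plasmid (EV); both were delivered with Lipofectamine 2000 and collected 48 h later, with 3 small RNA libraries in each group. Everything was measured in 1 cell line, SMARCA4 was supplied from a plasmid during a short transfection, and no measurement of its own mRNA was used to check which libraries received it.

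The cluster is a single polycistronic primary transcript, from which Drosha and Dicer cut a row of hairpins; each hairpin can give a 5p and a 3p mature strand, and usually one strand is kept in Argonaute and the other is degraded. Members of 1 transcript can still reach different levels, since the trimming of each hairpin and the stability of each strand differ. The cluster is known as oncomiR-1: MYC and E2F factors activate its transcription, it is amplified in several cancers including lung cancers, and its members repress, among others, the pro-apoptotic BCL2L11 (BIM) and the cell cycle inhibitor CDKN1A.

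The mature sequences, from RefSeq on GRCh38.p14 and written 5′ to 3′ with the seed (bases 2 to 8) in capitals, show which members can recognise the same targets. The 5p strands of miR-17 and miR-20a have 1 seed, that of miR-18a differs from it by A4G (counted from the 5′ end of miR-17-5p), and miR-19a and miR-19b have another in common.
miR-17-5p: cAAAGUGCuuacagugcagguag
miR-20a-5p: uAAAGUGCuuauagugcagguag
miR-18a-5p: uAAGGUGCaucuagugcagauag
miR-19a-3p: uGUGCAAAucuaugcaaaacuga
miR-19b-3p: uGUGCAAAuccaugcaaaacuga
miR-92a-3p: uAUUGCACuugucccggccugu
miR-17-3p: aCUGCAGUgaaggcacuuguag
miR-18a-3p: aCUGCCCUaagugcuccuucugg
The 8 members thus carried 6 different seeds. miR-19a-3p and miR-19b-3p differ at 1 of 23 positions (U11C), and miR-17-5p and miR-20a-5p at 2 (C1U and C12U). No source used here says how the authors assigned reads that fit several miRNAs, so the separate values within these pairs are less certain than the others.

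The 6 hairpins lie on the plus strand of chromosome 13 in GRCh38, at chr13:91350605-91351391, which is 787 bases, in the order MIR17, MIR18A, MIR19A, MIR20A, MIR19B1 and MIR92A1. Between 35 and 92 bases separate neighbours. In GENCODE 29 all 6 fall inside the host gene MIR17HG (91347820 to 91354579), within an intron of its spliced transcript MIR17HG-201 and within an exon of the transcripts MIR17HG-202 and MIR17HG-203. Both miR-19b-3p and miR-92a-3p are encoded a second time, by MIR19B2 and MIR92A2 on the minus strand of chromosome X, so their reads cannot be assigned to chromosome 13 by sequence. The other strands of the MIR92A1 and MIR92A2 hairpins differ in sequence. miR-92a-1-5p, the 5p strand of the chromosome 13 hairpin, had between 20 and 389 reads in every library, whereas miR-92a-2-5p, its counterpart from chromosome X, was at 0 in all 6, which allows up to 3 reads in each.

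miR-92a-3p dominated the cluster. It averaged 72361 ± 27192 normalized read counts in SMARCA4 cells and 46741 ± 1923 in EV cells (SD, n = 3 each), and ranked 9 among all 787 miRNAs by mean level. It supplied between 95.1% and 98.1% of the members' reads in SMARCA4 libraries and between 93.4% and 94.2% in EV libraries. Adapter ligation differs between small RNAs, so such a difference in level between miRNAs is less certain than a difference of 1 miRNA between libraries.

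In EV cells the next levels were miR-20a-5p at 985 ± 131, miR-19b-3p at 751 ± 86.4 and miR-17-5p at 739 ± 121 (SD, n = 3), of which the last pair overlapped. In SMARCA4 cells miR-19b-3p led these 3, at 932 ± 87.7, before miR-20a-5p at 591 ± 256 and miR-17-5p at 487 ± 72.8 (SD, n = 3), and miR-19b-3p did not overlap with the other two there. miR-19a-3p followed at 294 ± 101 in SMARCA4 cells and 307 ± 63.3 in EV cells. The lowest 3 members, miR-17-3p, miR-18a-5p and miR-18a-3p, had group means between 66.6 and 129, and within EV cells the values of miR-17-3p overlapped with those of each of the other two. The thinnest of all these values was miR-18a-3p in EV replicate 1, which rested on 26 reads (95% Poisson interval 16.98 to 38.1, counting error only).

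**Figure D1:**
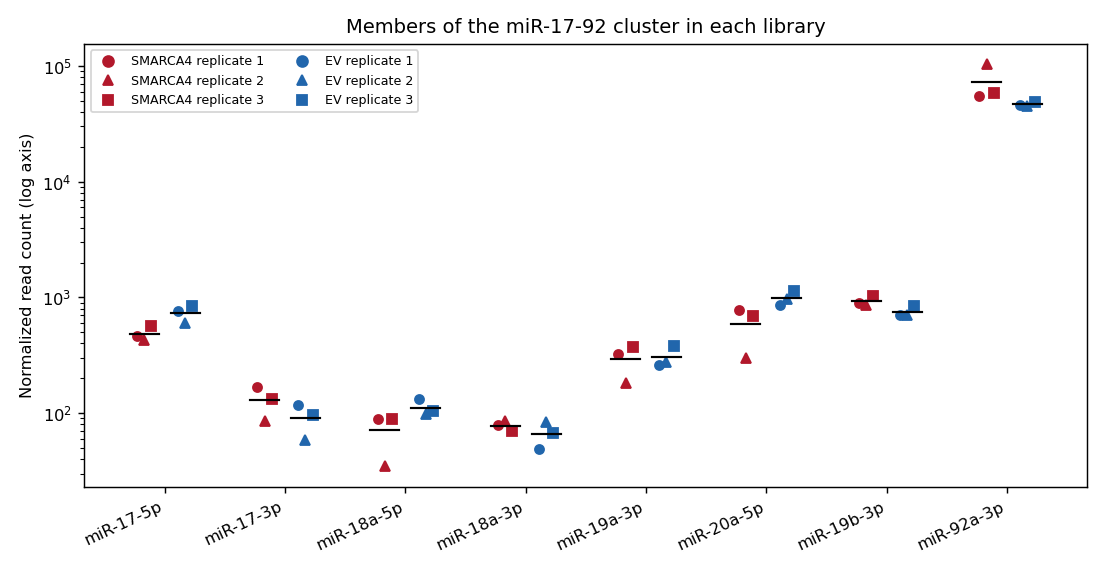
Normalized read count (log axis) of each of the 8 members, in order along the cluster, with SMARCA4 libraries in red and EV libraries in blue. Points are single libraries, black bars are group means, and miR-92a-3p stands far above the other 7 in every library, with SMARCA4 replicate 2 at 103682.

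The libraries differed in depth, and 1 stood apart. Recovered read totals were between 701885 and 7274329 in SMARCA4 libraries and between 881370 and 1079944 in EV libraries, and SMARCA4 replicate 2 held 8.33 times the mean of the other 5. Its deposited total was 3073322, against 1661870 to 1835229 in the others, so its scaling also differs, and results for the members are given with and without it. Of 7 epithelial marker miRNAs 6 were listed, led by miR-200b-3p, with a summed level of 425 to 623 in SMARCA4 libraries and 356 to 677 in EV libraries; miR-205-5p was not among the listed. By limma 2 of the 6, miR-141-3p and miR-203a-3p, were higher with SMARCA4 at an adjusted p under 0.05, as were 0.942% of all tested miRNAs. The summed levels overlapped. The endothelial pair from miR-126 summed to 1200 to 1401 in SMARCA4 libraries and 746 to 1490 in EV libraries. Of 2 neuronal markers 1 was listed, miR-9-5p, at 146.4 to 427 in SMARCA4 libraries and at 139.5 to 145.5 in EV libraries. The other, miR-124-3p, was not among the listed. The marker of liver was not among the listed either. Of 7 blood cell markers 3 were listed, and miR-451a, miR-144-3p, miR-142-3p and miR-223-3p were not. Of 5 markers of muscle and fibroblasts 4 were listed, with a summed level of 31.4 to 122 in SMARCA4 libraries and 22.6 to 51.3 in EV libraries; nearly all of it was miR-143-3p, and miR-1-3p and miR-133a-3p were at 0 in all libraries. The summed level of the 3 listed blood cell miRNAs, led by miR-486-5p, was 7962 to 14458 in SMARCA4 libraries and 5621 to 7213 in EV libraries. The part of these marker levels in the results below was not tested.

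No member of the cluster passed the test between SMARCA4 and EV cells. In such bulk libraries, fewer cells holding a miRNA and less of it per cell cannot be told apart. By limma, 0 of 8 had an adjusted p under 0.05, against 1.41% of all tested miRNAs (0.942% higher and 0.471% lower in SMARCA4 cells), and adjusted p-values of the members ran from 0.226 to 0.897. At an unadjusted p under 0.05 the count was also 0 of 8, against 22.6% of all tested. That count was 2 of 8 with libraries rescaled to the same total (24.0% of all tested), where miR-17-5p and miR-20a-5p had log2 fold changes of −0.92 and −1.17 and adjusted p-values of 0.177 and 0.201 by limma. On the recovered reads, edgeR and DESeq2 also called 0 of 8 members, against 1.26% and 10.4% of the miRNAs to which they gave an adjusted p. In the values as deposited, 4 members had a negative and 4 a positive log2 fold change, where 48.4% of all tested miRNAs had a positive one, and their median was 0.075, beside −0.047 over all tested. On the rescaled values 6 were negative and 2 positive, where 37.0% of all tested were positive, and their median was −0.25, beside −0.31 over all tested. The median size of the log2 fold change, whatever its sign, was 0.54 for the members and 0.64 for all tested.

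All 3 members from 5p strands had negative log2 fold changes, and 4 of the 5 members from 3p strands had positive ones. After rescaling the libraries to 1 total the 3 from 5p strands were still negative, and so were 3 of the 5 from 3p strands. Tested strands of these hairpins that are not members did not all follow these signs. In the values as deposited, the log2 fold change was −2.29 for miR-20a-3p and 0.24 for miR-92a-1-5p. It was −0.36 for miR-19a-5p, which has the sign of the 5p members. miR-20a-3p and miR-19a-5p had at most 9 reads in any library. A relation to strand or seed was not tested. The 3 SMARCA4 libraries did not overlap with the 3 EV libraries for 5 of 8 members, against 31.1% of all tested miRNAs. Of these, 3 were lower in SMARCA4 cells (miR-17-5p, miR-18a-5p and miR-20a-5p) and 2 were higher (miR-19b-3p and miR-92a-3p), where the background is 15.2% and 15.9%. With 8 members these counts are descriptions, and in each of the 5 a two-sided exact permutation test gave p = 0.1, below which 3 against 3 libraries cannot go.

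**Figure D2:**
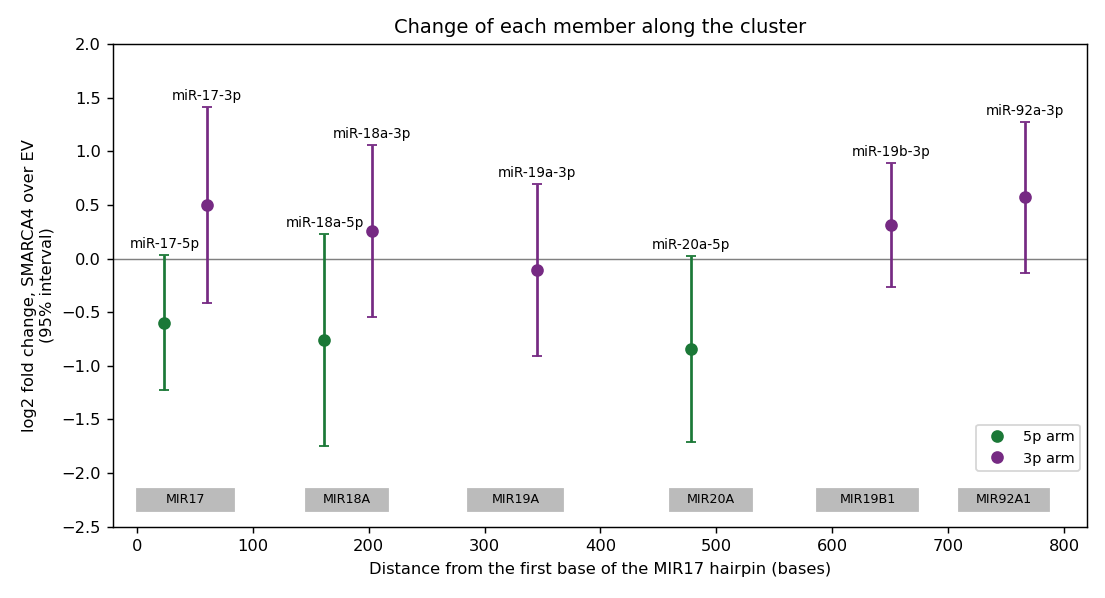
Log2 fold change of SMARCA4 over EV for each member, with its 95% interval, against the distance in bases from the first base of the MIR17 hairpin; grey boxes are the hairpins, green points 5p strands and purple points 3p strands. The 3 green points lie below 0 and 4 of the 5 purple points above it, and every interval includes 0.

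The miR-17 seed family represses cell cycle and TGF-beta pathway genes such as CDKN1A and TGFBR2. Its first member, miR-17-5p, had 463, 430 and 569 normalized read counts in SMARCA4 replicates 1, 2 and 3, against 766, 607 and 844 in EV replicates 1, 2 and 3. Each SMARCA4 library lay under each EV library. On the deposited scale the coefficient of variation was 14.9% in SMARCA4 cells and 16.4% in EV cells. As a share of reads, miR-17-5p was at 0.0235% ± 0.0088% in SMARCA4 cells and 0.0427% ± 0.0074% in EV cells (SD, n = 3 each). The SMARCA4 spread was then wider relative to its mean. Its log2 fold change was −0.60 (SE 0.28, 95% interval −1.22 to 0.03, adjusted p = 0.232 by limma).

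miR-20a-5p, which has the miR-17 seed, had 784, 300 and 687 normalized read counts in SMARCA4 replicates 1, 2 and 3, against 867, 962 and 1127 in EV replicates 1, 2 and 3. The groups did not overlap, and SMARCA4 replicate 2 was far below the other 2 SMARCA4 libraries. For miR-20a-5p the log2 fold change was −0.84 (SE 0.38, 95% interval −1.71 to 0.02, adjusted p = 0.226 by limma). It was −0.42 without SMARCA4 replicate 2 (limma adjusted p = 0.262), so that library alone moved the value by more than its SE.

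miR-18a-5p, whose seed differs from that of miR-17 by 1 base, had 88.9, 34.6 and 89.7 normalized read counts in SMARCA4 replicates 1, 2 and 3, against 132, 98.9 and 105 in EV replicates 1, 2 and 3. SMARCA4 replicate 2 was again the lowest, although it was the deepest library and held 82 reads of this miRNA, against 34 and 38 reads in the other SMARCA4 libraries. It had a log2 fold change of −0.76 (SE 0.44, 95% interval −1.74 to 0.23, adjusted p = 0.327 by limma), and −0.31 without SMARCA4 replicate 2 (limma adjusted p = 0.568).

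The miR-19 pair has been described as the main oncogenic component of the cluster in mouse B-cell lymphoma. miR-19b-3p had 894, 869 and 1032 normalized read counts in SMARCA4 replicates 1, 2 and 3, against 700, 702 and 850 in EV replicates 1, 2 and 3. The groups did not overlap, but the lowest SMARCA4 library and the highest EV library were close. Its log2 fold change was 0.31 (SE 0.26, 95% interval −0.26 to 0.89, adjusted p = 0.483 by limma), and −0.010 with libraries rescaled to the same total.

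miR-19a-3p had 327, 181 and 375 normalized read counts in SMARCA4 replicates 1, 2 and 3, against 262, 280 and 379 in EV replicates 1, 2 and 3. The groups overlapped, with SMARCA4 replicate 2 below all the others. For miR-19a-3p the log2 fold change was −0.11 (SE 0.36, 95% interval −0.91 to 0.70, adjusted p = 0.897 by limma), and its sign turned without SMARCA4 replicate 2 (0.21) or without EV replicate 3 (0.054). miR-19a-3p and miR-19b-3p thus had opposite signs in the values as deposited. Both were positive without SMARCA4 replicate 2 (0.21 and 0.36), and both were negative with libraries rescaled to the same total (−0.43 and −0.010).

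miR-92a-3p, whose targets include the integrin subunit ITGA5, had 54789, 103682 and 58611 normalized read counts in SMARCA4 replicates 1, 2 and 3, against 45892, 45388 and 48942 in EV replicates 1, 2 and 3. The EV libraries lay within a coefficient of variation of 4.11%, and all 3 SMARCA4 libraries were above them, with replicate 2 far above the other two. This gave a log2 fold change of 0.57 (SE 0.31, 95% interval −0.14 to 1.27, adjusted p = 0.305 by limma), and 0.28 without SMARCA4 replicate 2 (limma adjusted p = 0.363).

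A share of all reads assigned to listed miRNAs does not use the deposited scaling, but it depends on the other miRNAs in the total. By this measure miR-92a-3p made up 2.99%, 3.37% and 3.23% in SMARCA4 replicates 1, 2 and 3, and 2.76%, 2.56% and 2.77% in EV replicates 1, 2 and 3. SMARCA4 replicate 2 was then close to the other SMARCA4 libraries, and the groups still did not overlap. The bounds of the exact 95% binomial intervals lay within 0.0401 percentage points of these shares (counting error only). Rescaled to the same total, the log2 fold change was 0.25 (limma adjusted p = 0.511).

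The 3p strand of miR-17 is usually the scarcer product of its hairpin. miR-17-3p had 170, 86.2 and 132 normalized read counts in SMARCA4 replicates 1, 2 and 3, against 119, 59.0 and 96.5 in EV replicates 1, 2 and 3. The groups overlapped, with replicate 2 the lowest library in both of them. For miR-17-3p this was a log2 fold change of 0.50 (SE 0.40, 95% interval −0.41 to 1.41, adjusted p = 0.481 by limma). It dropped to 0.28 when SMARCA4 replicate 1 was left out and to 0.22 when EV replicate 2 was, was 0.77 when SMARCA4 replicate 2 was, and 0.18 with libraries rescaled to the same total.

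miR-18a-3p had 78.4, 85.3 and 70.8 normalized read counts in SMARCA4 replicates 1, 2 and 3, against 49.0, 83.7 and 67.0 in EV replicates 1, 2 and 3. The groups overlapped and SMARCA4 replicate 2 did not stand apart for this strand. For miR-18a-3p the log2 fold change was 0.26 (SE 0.36, 95% interval −0.54 to 1.06, adjusted p = 0.694 by limma), and it was 0.057 without EV replicate 1 and −0.061 with libraries rescaled to the same total.

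Ratios between members of the same library do not depend on how libraries were scaled, and 3 of them were tested. For the hairpin of miR-17, the ratio of the 3p to the 5p strand was 0.367, 0.201 and 0.232 in SMARCA4 replicates 1, 2 and 3, against 0.155, 0.0972 and 0.114 in EV replicates 1, 2 and 3. Every SMARCA4 library was above every EV library, by 2.15-fold on average (log2 difference 1.10, exact two-sided permutation p = 0.1, the smallest possible; Benjamini-Hochberg over the 3 ratios 0.15). Without SMARCA4 replicate 2 the log2 difference was 1.28, so the difference was as large without the library that stood apart.

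For the hairpin of miR-18a, the ratio of the 3p to the 5p strand was 0.882, 2.46 and 0.789 in SMARCA4 replicates 1, 2 and 3, against 0.371, 0.846 and 0.641 in EV replicates 1, 2 and 3. The groups overlapped (log2 difference 1.03, exact two-sided permutation p = 0.2; Benjamini-Hochberg over the 3 ratios 0.2). Without SMARCA4 replicate 2 the log2 difference was 0.51. The direction was the same as for miR-17, with the 3p strand relatively more abundant in SMARCA4 cells, and SMARCA4 replicate 2 had the highest ratio.

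The ratio of miR-92a-3p to miR-17-5p compares mature strands encoded by the last and the first hairpin of the cluster. Reads of miR-92a-3p may also come from MIR92A2 on chromosome X, so it is not strictly a ratio within the cluster. The ratio was 118, 241 and 103 in SMARCA4 replicates 1, 2 and 3, against 59.9, 74.8 and 58.0 in EV replicates 1, 2 and 3. The groups did not overlap, with a 2.24-fold higher ratio in SMARCA4 cells (log2 difference 1.17, exact two-sided permutation p = 0.1, the smallest possible; Benjamini-Hochberg over the 3 ratios 0.15). Without SMARCA4 replicate 2 the log2 difference was 0.79.

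**Figure D3:**
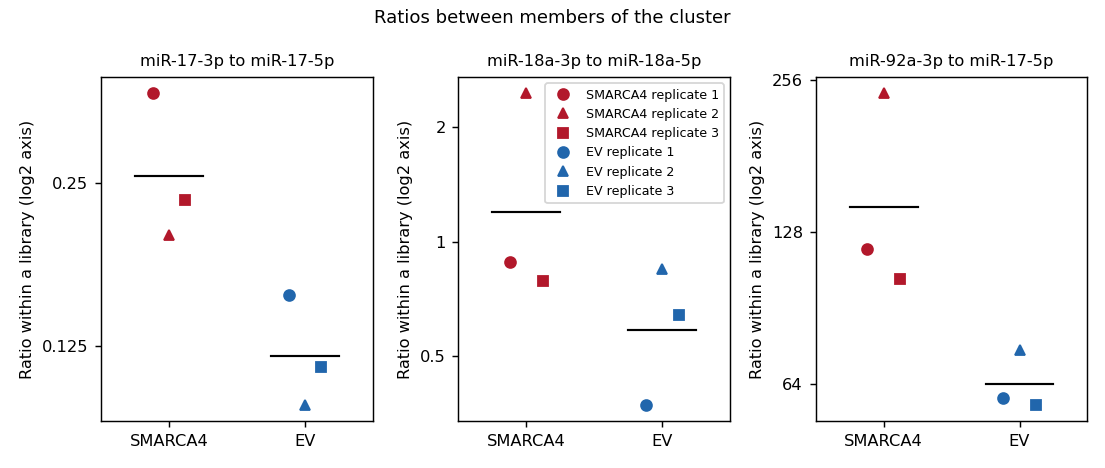
Ratios within each library (log2 axes) of the 3p to the 5p strand of miR-17 and of miR-18a, and of miR-92a-3p to miR-17-5p; points are libraries and black bars geometric means. SMARCA4 libraries lie above all EV libraries for miR-17 (0.201 to 0.367 against 0.0972 to 0.155) and for miR-92a-3p to miR-17-5p, and the groups overlap for miR-18a.

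Summed over the 8 members, the cluster made up 3.14% (exact 95% binomial interval 3.10 to 3.18), 3.44% (3.42 to 3.45) and 3.40% (3.36 to 3.44) of reads in SMARCA4 replicates 1, 2 and 3, and 2.94% (2.90 to 2.97), 2.71% (2.68 to 2.75) and 2.97% (2.936 to 3.0002) in EV replicates 1, 2 and 3. The intervals cover counting error only, and most of the sum is miR-92a-3p. The other 7 members together made up 0.153%, 0.0646% and 0.163% in SMARCA4 replicates 1, 2 and 3, and 0.174%, 0.157% and 0.196% in EV replicates 1, 2 and 3. The interval bounds of these shares lay within 0.00942 percentage points. SMARCA4 replicate 2 had the lowest share of these 7 and the highest share of miR-92a-3p.

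When each member was taken as a share of its library's total, 4 of 8 had no overlap between the groups, against 30.6% of all tested miRNAs. The shares of miR-17-5p, miR-18a-5p and miR-20a-5p were lower in SMARCA4 cells and that of miR-92a-3p was higher. miR-17-5p, for example, made up 0.0252%, 0.0140% and 0.0314% of reads in SMARCA4 replicates 1, 2 and 3, and 0.0461%, 0.0342% and 0.0478% in EV replicates 1, 2 and 3, with interval bounds within 0.00471 percentage points. Over all tested miRNAs, rescaling to the same total shifted the median log2 fold change by −0.26.

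**Figure D4:**
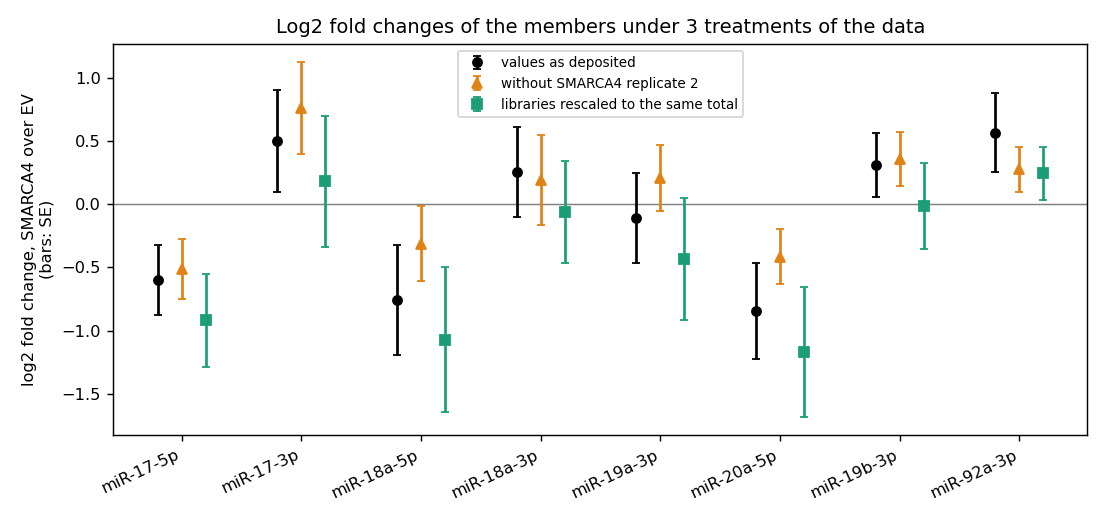
Log2 fold change of SMARCA4 over EV (bars are SE) for each member with the values as deposited, without SMARCA4 replicate 2, and with libraries rescaled to the same total. The 3 members from 5p strands stay below 0 and miR-17-3p and miR-92a-3p above 0 in all 3 settings, while miR-18a-3p, miR-19a-3p and miR-19b-3p change sign in 1 of them.

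Of the strands of these hairpins that are not members, 1 was as abundant as the lowest members and the others were scarce. miR-92a-1-5p averaged 92.3 ± 63.0 in SMARCA4 cells and 67.7 ± 5.09 in EV cells (SD, n = 3 each; limma log2 fold change 0.24 with SE 0.48, adjusted p = 0.802). miR-20a-3p had 2 reads in all SMARCA4 libraries together and 18 in all EV libraries together (limma log2 fold change −2.29 with SE 0.97, adjusted p = 0.201). miR-19a-5p had 13 reads over the SMARCA4 libraries and 7 over the EV libraries (limma adjusted p = 0.847), so no difference was detectable for it at this depth. miR-19b-1-5p had 0 over the SMARCA4 libraries and 2 over the EV libraries, and with a mean under 1 it was not tested. These sums are raw reads, and the SMARCA4 sums include the deepest library.

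Humans carry a pair of paralogous clusters, miR-106b-25 within MCM7 on chromosome 7 and miR-106a-363 on chromosome X. Of 16 named mature miRNAs of these clusters 15 were listed, 6 of these were at 0 in every library, and 8 were tested. By limma 0 of the 8 passed, where 1.41% of all tested miRNAs did, and 2 had an unadjusted p under 0.05, where 22.6% of all tested did. A positive log2 fold change was found for 5 and a negative one for 3, beside 48.4% positive over all tested, and the median was 0.29. The miR-106a-363 cluster gave few reads: miR-106a-5p, which differs from miR-17-5p by C1A only, had 0 reads in SMARCA4 libraries and 2 in EV libraries, and miR-363-3p averaged 10.5 ± 3.34 normalized read counts in SMARCA4 cells and 5.87 ± 3.45 in EV cells (SD, n = 3 each). This cluster holds the second copies of miR-19b-3p and miR-92a-3p.

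The most abundant paralog was miR-25-3p, which has the seed of miR-92a-3p. It averaged 12737 ± 5357 in SMARCA4 cells and 6824 ± 502 in EV cells (SD, n = 3 each; limma log2 fold change 0.83 with SE 0.32, adjusted p = 0.170), and the groups did not overlap. miR-93-5p, with the seed of miR-17-5p, averaged 3841 ± 1293 in SMARCA4 cells and 3009 ± 298 in EV cells (SD, n = 3 each; limma log2 fold change 0.31 with SE 0.29, adjusted p = 0.553). miR-106b-3p averaged 1452 ± 654 in SMARCA4 cells and 650 ± 175 in EV cells (SD, n = 3 each; limma log2 fold change 1.10 with SE 0.36, adjusted p = 0.113), also with no overlap. Its 5p partner, miR-106b-5p, had a log2 fold change of −0.46 (SE 0.41, adjusted p = 0.520 by limma). The strands of miR-93 had the opposite signs, with miR-93-3p at 30.4 ± 16.1 in SMARCA4 cells and 55.7 ± 10.2 in EV cells (SD, n = 3 each; limma log2 fold change −1.02 with SE 0.52, adjusted p = 0.270) and no overlap of the groups. miR-25-5p had a log2 fold change of 0.27 (SE 0.39, adjusted p = 0.705 by limma), positive like that of miR-25-3p. Without SMARCA4 replicate 2 the SMARCA4 means fell to 9645 for miR-25-3p, 3095 for miR-93-5p and 1075 for miR-106b-3p. That of miR-93-3p rose to 39.7. Each stayed on the same side of its EV mean, narrowly so for miR-93-5p.

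The miRNAs most like the cluster were sought among 413 others with a mean of at least 10, by the Pearson correlation, over 6 libraries, of log2 values with the mean of the members' log2 values, each centred on its own mean. The 5 highest were miR-574-3p (r = 0.997), miR-23b-3p (r = 0.995), miR-335-5p (r = 0.977), miR-7-5p (r = 0.969) and miR-424-5p (r = 0.951). In each of the 5, SMARCA4 replicate 2 was the lowest library, as it was in the members' mean. That mean gives each member the same weight. miR-17-5p, miR-18a-5p, miR-19a-3p and miR-20a-5p were lowest in that library. miR-92a-3p, the most abundant member, and miR-18a-3p were highest in it, at 103682 and 85.3 normalized read counts. Values of 1 library share its depth and scaling, and the likeness is given as a description.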

How the data were processed

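Total RNA of the 6 A549 cultures was made into TruSeq small RNA libraries, per the labels' protocols. The submitters' processing notes name bcl2fastq 2.18.0.12 and the build GRCh38; no source used here gives the trimmer, aligner, counter or miRNA annotation. The authors deposited 1 normalized signal value for each mature miRNA and library, in a table whose name speaks of TMM. In every library 100% of the values were whole multiples of 1 step (tolerance 1e-06), so read counts were recovered from the deposited values.

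The test was limma 3.58.1 (R 4.3.3) on log2(value + 1) with a mean-variance trend and no term beside the group. It covered the 637 miRNAs with a mean of at least 1; the other 150 were not tested. Fold changes are on that log2 scale, which understates changes of scarce miRNAs. p-values were adjusted over all tested miRNAs (Benjamini-Hochberg, threshold 0.05). The design had assumed normalized values and kept its test. Alternatives on the recovered reads were edgeR 4.0.16 and DESeq2 1.42.0; DESeq2 left 212 adjusted p-values undefined. Ratios were compared with exact permutation tests. The code was tested on simulated data.

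Titles gave the groups and replicate numbers. The replicates are independent biological ones, per the design text, and every pair of libraries differed beyond sampling noise (lowest chi-square per degree of freedom 6.61). Members, lists and tests were chosen with earlier results of these data known. Named miRNAs were the 8 members, the other strands of their hairpins, the paralog clusters (counts, and values of the 3 most abundant) and the 5 most alike. miR-106a-5p, miR-363-3p, miR-106b-5p, miR-93-3p, miR-25-5p, the 2 epithelial markers that rose and the further miRNAs of shared seed were named after their values were seen. Sequences come from RefSeq (GRCh38.p14), where 689 of the 787 names matched by name.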

Additional observations from a re-analysis of the deposited data

How the results depend on the processing

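Of 128 values of members under 16 alternatives each, 124 kept their direction and 0 passed the threshold; adjusted p-values ran from 0.143 to 0.991. The log2 fold change changed sign for miR-18a-3p (−0.061) and miR-19b-3p (−0.010) with libraries rescaled to the same total, and for miR-19a-3p without SMARCA4 replicate 2 (0.21) or EV replicate 3 (0.054); the cause was not tested. With a replicate left out, log2 fold changes lay between −0.73 and −0.49 for miR-17-5p, 0.22 and 0.77 for miR-17-3p, −0.98 and −0.31 for miR-18a-5p, 0.057 and 0.44 for miR-18a-3p, −0.32 and 0.21 for miR-19a-3p, −1.11 and −0.42 for miR-20a-5p, 0.24 and 0.41 for miR-19b-3p and 0.28 and 0.74 for miR-92a-3p. Over all tested miRNAs 9 were called, 44 by DESeq2, and between 0 and 41 with a replicate left out (41 without SMARCA4 replicate 2, 0 without SMARCA4 replicate 1 or EV replicate 1, 1 without SMARCA4 replicate 3 and 2 without EV replicate 3). The share of reads held by the 8 members was higher in SMARCA4 cells by 0.452 percentage points, by 0.372 to 0.545 with a replicate left out, and by 0.180 when the most abundant miRNA was taken out of the total. Log2 differences of the ratios with a replicate left out lay between 0.85 and 1.29 for the strands of miR-17, 0.51 and 1.33 for those of miR-18a and 0.79 and 1.40 for miR-92a-3p to miR-17-5p. The main test was planned with the group only, so the replicate numbers were not taken to pair the libraries. Same-numbered libraries correlated at 0.07, 0.09 and 0.01 in their deviations. These values are low, yet 5 of 6 libraries correlated best with their own number. Whether the numbers pair the libraries was not tested. With the replicate block 13 miRNAs and 0 members were called by limma, 172 miRNAs and 2 members had an unadjusted p under 0.05, and the exact p of each ratio was 0.25, the smallest that 3 pairs allow.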

Other observations

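The seed of miR-92a-3p is carried by 5 listed miRNAs. All 5 had a positive log2 fold change for SMARCA4 over EV, where 48.4% of all tested miRNAs did. By limma 0 of the 5 passed the threshold, where 1.41% of all tested did. This grouping was made after the values were seen and is given without a test. Beside miR-92a-3p and miR-25-3p they were miR-92b-3p, miR-363-3p and miR-32-5p. miR-32-5p, had 83.7, 49.4 and 54.3 normalized read counts in SMARCA4 replicates 1, 2 and 3, against 26.4, 9.51 and 9.81 in EV replicates 1, 2 and 3 (limma log2 fold change 2.08 with SE 0.51, adjusted p = 0.0656). miR-92b-3p averaged 27179 ± 8745 in SMARCA4 cells and 21254 ± 4315 in EV cells (SD, n = 3 each; limma log2 fold change 0.33 with SE 0.31, adjusted p = 0.549). Its values were 22573, 37264 and 21701 in SMARCA4 replicates 1, 2 and 3, against 22414, 16477 and 24870 in EV replicates 1, 2 and 3. Only SMARCA4 replicate 2 lay above every EV library. The groups also overlapped for miR-363-3p, which had 1 to 16 reads in a library. They did not overlap for miR-92a-3p, miR-25-3p and miR-32-5p, each higher in SMARCA4 cells. Over all tested miRNAs 31.1% had no overlap, and 15.9% had none with SMARCA4 higher. Of 5 tested miRNAs with the miR-17 seed, 1, miR-93-5p, had a positive and 4 had a negative log2 fold change. The groups overlapped for miR-93-5p. Among the 4, miR-20b-5p had at most 1 read in any library, so its sign carries no weight. A difference between the seeds was not tested.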
